A study of Mus musculus with 9 samples.

Results

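Acute phase and metallothionein genes were described in mouse aorta across 5 treatment groups. The genes were Saa3, Lcn2, Hp, Serpina3n, Steap4, Slc39a14, Mt1 and Mt2, 8 of the 17179 gene symbols in the deposited tables. They were matched by name, and the choice of genes was made with earlier results of these data known. Expression was measured by bulk RNA sequencing of 9 libraries from C57BL/6J mice, in FPKM, a fragment count scaled by transcript length and by the mapped total of the library. The deposited tables hold no value of 0, and a gene that the table of a library does not list was set to 0. All groups except the normal one received BAPN (β-aminopropionitrile, which blocks lysyl oxidase and so the cross-linking of collagen and elastin) at 1 g/kg/day to induce aortic dissection. The normal group (2 libraries) drank distilled water, and the BAPN group (2 libraries) had BAPN alone. The TPA group (2 libraries) had BAPN and daily intraperitoneal TPA at 50 ng/g/day from day 1, given to activate the transcription factor AP-1. The T-5224 group (2 libraries) had BAPN and the AP-1 inhibitor T-5224 by gavage at 5 mg/kg/day, and the coQ10 group (1 library) had BAPN and coenzyme Q10 by gavage at 10 mg/kg/day. Gavage began on day 7 or 14, and mice were killed on day 28. T-5224 replicate 1 is titled with 2 weeks and replicate 2 with 3 weeks, so these replicates may differ in treatment. The coQ10 label is spelled co110 and was read as coQ10. Age, sex and the number of mice behind each library were not given in the sources used here, so the p-values measure only the spread between these libraries.

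Acute phase proteins are made in larger amounts during inflammation, mainly by the liver and also locally by other cells. Interleukin 6 and interleukin 1 induce them through STAT3, C/EBP and NF-kB factors. Metallothioneins are small cysteine-rich proteins that bind zinc and copper. Zinc induces them through the factor MTF1, which binds metal response elements, and glucocorticoids and inflammatory cytokines induce them too. Slc39a14 (ZIP14) imports zinc and iron into cells during inflammation, and Steap4 reduces iron and copper at membranes.

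Mt1 and Mt2 are neighbours on chromosome 8 (GRCm38.p6), where Mt2 spans 94172618 to 94173567 and Mt1 spans 94178883 to 94180327, with 5315 bases between them. Their promoter sequences are shown because both genes followed each other across the libraries. Each run is from the RefSeq promoter entry (GRCm38.p6, plus strand), from 250 bases before to 30 after the start used there, and capitals mark matches to the metal response element core (TGCACNC or TGCGCNC, either strand).
Mt1, chr8:94178839-94179118: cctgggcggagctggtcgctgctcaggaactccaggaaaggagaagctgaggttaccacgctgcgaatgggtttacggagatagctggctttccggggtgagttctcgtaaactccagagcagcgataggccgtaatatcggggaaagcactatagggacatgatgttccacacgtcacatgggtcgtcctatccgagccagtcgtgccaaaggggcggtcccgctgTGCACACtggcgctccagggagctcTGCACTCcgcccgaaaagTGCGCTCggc
Mt2, chr8:94172368-94172647: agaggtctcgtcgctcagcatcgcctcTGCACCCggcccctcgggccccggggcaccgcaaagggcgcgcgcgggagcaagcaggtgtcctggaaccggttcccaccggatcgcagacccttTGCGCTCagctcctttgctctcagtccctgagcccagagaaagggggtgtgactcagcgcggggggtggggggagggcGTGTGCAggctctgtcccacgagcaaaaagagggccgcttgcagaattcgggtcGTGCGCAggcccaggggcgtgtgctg
The Mt1 window of 300 bases held 3 such matches, first base at -23, 3 and 21 from the start, and the Mt2 window held 4, at -223, -128, -50 and 5. The start used for Mt2 is the first base of its span (94172618). The start used for Mt1 lies inside its span, which begins at 94178883, so most of the Mt1 window lies within the gene span. Positions and counts of matches in the 2 windows are therefore not directly comparable. Of 32851 RefSeq promoters of this length, 25.7% held at least 1 match and 1.97% held 3 or more. The Mt2 window also held 1 AP-1 match (TGANTCA) at -79, a motif in 7.81% of promoters, and the Mt1 window held none. None of the other 4 acute phase genes with an entry (Saa3, Lcn2, Serpina3n and Steap4) held a metal response element or AP-1 match in this window. C/EBP matches (TTNCNNAA, at least 1 in 40.7% of promoters) numbered 4 in Saa3, 2 each in Serpina3n and Steap4 and 1 each in Lcn2 and Mt2. Mt1 held none. Serpina3n and Steap4 each held 1 NF-kB motif match (in 8.37%). Steap4 alone of the 6 held a STAT match (TTCNNNGAA, in 8.3%), and Serpina3n alone held the glucocorticoid receptor hexamer (TGTTCT, in 19%).

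Markers of blood differed between groups and within the T-5224 group. Markers of neighbouring tissues also differed between libraries of 1 group. Of the summed FPKM, haemoglobin genes held 1.03% to 1.25% in normal, 68.91% to 74.05% under BAPN, 69.21% to 69.42% with TPA, 40.82% and 11.16% with T-5224 and 5.4% with coQ10. Blood RNA was thus unequal between groups. The summed FPKM of 13 airway epithelium markers, among them Scgb1a1, was 19620 in normal replicate 1, 15991 and 7416 with TPA and 5030 in T-5224 replicate 2. The other 5 libraries did not exceed 42. The smooth muscle markers that define aortic media (8 of them, led by Acta2) summed to 6744 and 18768 in normal, 2068 and 763 under BAPN, 2639 and 3453 with TPA, 13005 and 3682 with T-5224 and 10506 with coQ10. No defining marker of smooth muscle was at 0 in any library. In such bulk samples, fewer cells of a type and less RNA per cell cannot be told apart. Depth is unknown because the files hold no counts.

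No member passed the test in any of the 5 comparisons (limma on log2 of FPKM plus 1, Benjamini-Hochberg adjusted p under 0.05 over 12997 tested genes). Of all tested genes, 3.26% passed in BAPN against normal and 0.0154% to 0.0385% in the others. All 8 members were above the filter of a mean of 1 FPKM. The wide spread between libraries of 1 group, above all between the normal and between the T-5224 libraries, is seen in the plot of members by library.

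**Figure D1:**
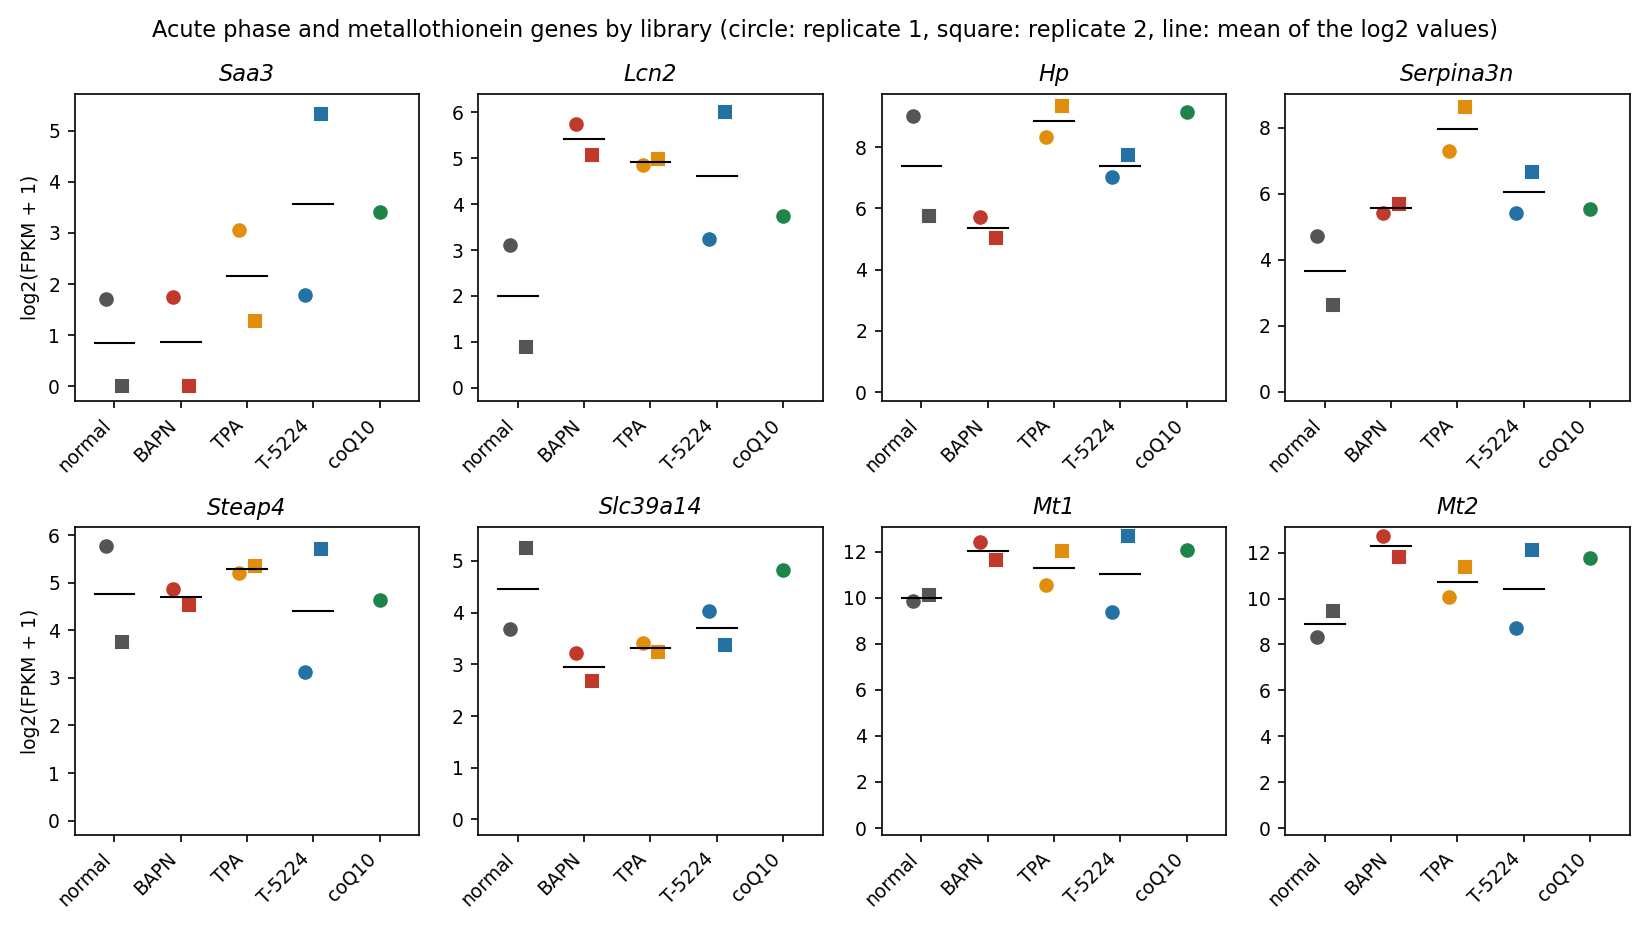
Level of each gene in each library as log2 of FPKM plus 1 (vertical axis) by treatment group (horizontal axis); circles are replicate 1, squares replicate 2, and lines the mean of the log2 values of groups with 2 libraries. Lcn2, Steap4, Mt1 and Mt2 lie low in T-5224 replicate 1 and high in T-5224 replicate 2.

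Among the secreted proteins, Saa3, a serum amyloid A made outside the liver by macrophages and adipocytes, had the lowest level. In GRCm38.p6 Saa3 lies on chromosome 7 from 46711998 to 46719615. It was 2.27 and 0 FPKM in normal, 2.35 and 0 under BAPN, 7.28 and 1.41 with TPA, 2.46 and 39.26 with T-5224 and 9.59 with coQ10. Saa3 was not listed in replicate 2 of the normal and of the BAPN group, and the high T-5224 mean rested on replicate 2. In the order of group means (T-5224, coQ10, TPA, BAPN, normal), each group overlapped the next except coQ10 and TPA. The difference of T-5224 from BAPN was 2.69 on the log2 scale (95% interval -0.39 to 5.77, limma adjusted p = 0.316). It was 0.92 without T-5224 replicate 2 and 4.46 without T-5224 replicate 1.

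Lcn2 encodes lipocalin 2, which binds bacterial iron carriers and is stored in neutrophil granules. Lcn2 lies on chromosome 2 from 32384637 to 32387739. Its level was 7.66 and 0.85 FPKM in normal, 52.86 and 32.85 under BAPN, 28.12 and 30.48 with TPA, 8.39 and 63.54 with T-5224 and 12.44 with coQ10. Both BAPN libraries lay above both normal libraries, the TPA libraries lay just below BAPN, and the T-5224 libraries lay on either side of it. The difference of BAPN from normal was 3.42 (SE 1.01, 95% interval 1.01 to 5.82), and 3.93 relative to the median of all genes, with a limma adjusted p of 0.0819 that misses the threshold. Lcn2 passed without T-5224 replicate 1 (adjusted p = 0.0278, beside 27.7% of all genes) or T-5224 replicate 2 (adjusted p = 0.026, beside 28.2%), with the difference still 3.42, since such a fit takes no spread from the T-5224 group. The difference ran from 2.30 without normal replicate 2 to 4.53 without normal replicate 1. The 13 neutrophil markers, of which 10 to 12 were listed in a library and the defining S100a8, S100a9 and Csf3r in all, summed to 289 and 31.2 FPKM in normal, 1916 and 1087 under BAPN, 876 and 317 with TPA, 151 and 398 with T-5224 and 104 with coQ10. The sum was higher under BAPN than in normal, as Lcn2 was. Csf3r, the neutrophil growth factor receptor, was at 1.86 and 0.31 FPKM in normal, 9.18 and 6.21 under BAPN, 21.2 and 3.4 with TPA, 6.67 and 0.03 with T-5224 and 1.15 with coQ10. Within the T-5224 group the sum was higher in the library with more Lcn2, and Csf3r was higher in the other. The part of neutrophils in the result was not tested.

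Hp encodes haptoglobin, which binds free haemoglobin and is made by the liver and by fat. Hp lies on chromosome 8 from 109575128 to 109579172. Its level was 512.35 and 53.12 FPKM in normal, 51.29 and 31.97 under BAPN, 323.21 and 650.79 with TPA, 127.97 and 215.04 with T-5224 and 561.9 with coQ10. Both BAPN libraries lay below every other library, and normal replicate 2 lay just above them. BAPN differed from normal by -2.01 (95% interval -4.39 to 0.38, limma adjusted p = 0.213), and by -0.38 without normal replicate 1 (adjusted p = 0.737) or -3.63 without normal replicate 2 (adjusted p = 0.0667). Against BAPN the difference was 3.47 in TPA (95% interval 1.08 to 5.86, limma adjusted p = 0.414), 2.01 in T-5224 (-0.38 to 4.39, adjusted p = 0.329) and 3.76 in coQ10 (0.84 to 6.68, adjusted p = 0.199). Fitted with only the 2 groups compared, Hp passed in TPA (adjusted p = 0.021, beside 8.0% of all genes) and in coQ10 (adjusted p = 0.0135, beside 9.91%), with unchanged differences. After rescaling to TPM it passed as lower in BAPN than in normal (-3.64, adjusted p = 0.0118) and as higher in coQ10 than in BAPN (5.21, adjusted p = 0.0138). That scaling called 74.1% and 56.4% of all genes in these comparisons and moved the median of all genes to -1.92 and 1.64.

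The summed mesothelial markers and 1 of the fat markers, Adipoq, were lowest in the BAPN libraries, as Hp was. By gene, Upk3b was lowest there, and Msln only just (0.5 FPKM in BAPN replicate 1, 0.52 in normal replicate 2). Lrrn4 was higher in BAPN replicate 1 (0.23) than in normal replicate 2 (0.12). The 8 mesothelium markers, of which 4 to 7 were listed in a library, summed to 303 and 4.65 FPKM in normal, 2.76 and 1.17 under BAPN, 96.2 and 72.2 with TPA, 10.7 and 100 with T-5224 and 79 with coQ10, with 1 of the 3 defining markers at 0 in each BAPN library. The defining fat marker Adipoq, the adipokine adiponectin, was at 591.89 and 27.64 FPKM in normal, 5.94 and 13.43 under BAPN, 140.01 and 128.71 with TPA, 18.06 and 178.94 with T-5224 and 209.82 with coQ10. All 10 fat markers together, all listed except 1 in T-5224 replicate 2 (the defining Lep), summed to 21513 and 4493 in normal, 4967 and 3617 under BAPN, 5653 and 7405 with TPA, 1468 and 20809 with T-5224 and 8978 with coQ10. This sum did not follow Hp, being lowest in T-5224 replicate 1 and higher in BAPN replicate 1 than in normal replicate 2. Plin1, the fat droplet protein perilipin and the third defining marker, was at 189.96 and 9.99 FPKM in normal, 6.51 and 4.76 under BAPN, 38.75 and 45.53 with TPA, 9.18 and 5.23 with T-5224 and 70.2 with coQ10. For the 10 hepatocyte markers the sum was 727 and 41.5 in normal, 27.9 and 55.6 under BAPN, 292 and 271 with TPA, 12.4 and 295 with T-5224 and 241 with coQ10, with Alb, the liver's main secreted protein, between 0.26 and 21.36 FPKM throughout and 1 defining marker at 0 in both normal libraries and TPA replicate 1. Every library outside the BAPN group had more summed mesothelial and Adipoq signal than either BAPN library, not only the 4 with the most Hp. T-5224 replicate 2 had more of both than either TPA library but less Hp. Its Plin1 level was below that of BAPN replicate 1. The part of these cells in the Hp result was not tested.

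**Figure D2:**
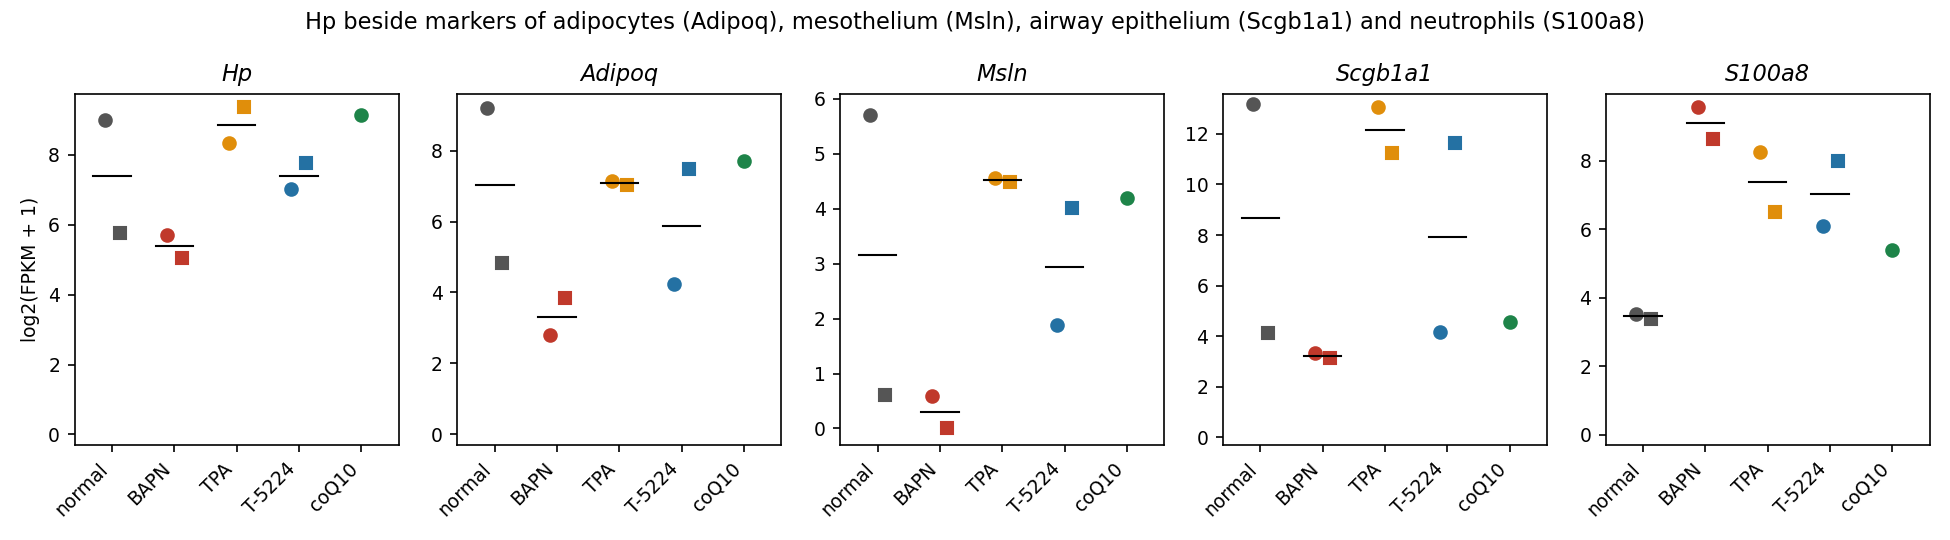
Levels of Hp and of 1 marker each of fat (Adipoq), mesothelium (Msln), airway epithelium (Scgb1a1) and neutrophils (S100a8) as log2 of FPKM plus 1 (vertical axis) by treatment group; circles are replicate 1, squares replicate 2, lines the mean of the log2 values. The BAPN libraries, at 51.29 and 31.97 FPKM of Hp, lie lowest for Hp.

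Serpina3n encodes a secreted serine protease inhibitor of the α1-antichymotrypsin family. Its level was 25.43 and 5.12 FPKM in normal, 41.62 and 51.01 under BAPN, 155.32 and 397.47 with TPA, 41.88 and 99.95 with T-5224 and 45.52 with coQ10. Both TPA libraries lay above all 7 others, both normal libraries lay lowest, and coQ10 lay inside the BAPN range. The difference of TPA was 2.41 from BAPN (95% interval 0.50 to 4.31, limma adjusted p = 0.442) and 1.92 from T-5224 (0.02 to 3.83, adjusted p = 0.457). It passed against BAPN when only those 2 groups were fitted (adjusted p = 0.0453, beside 8.0% of all genes). From normal to BAPN the difference was 1.89 (-0.02 to 3.80, adjusted p = 0.157). Leaving out normal replicate 2 gave 0.83 and leaving out normal replicate 1 gave 2.94. The summed FPKM of the 8 skeletal muscle markers was highest in the same 3 libraries as Serpina3n. It was 7953 and 14763 in TPA and 8965 in T-5224 replicate 2. Elsewhere it was 2801 and 18.2 in normal, 3171 and 1616 under BAPN, 20.2 in T-5224 replicate 1 and 51.5 in coQ10. The defining markers Acta1 and Ckm were highest in these 3 libraries too. The defining Myh4 was not, at 12.31 FPKM in T-5224 replicate 2, below both BAPN libraries (20.54 and 59.08). Squamous epithelium markers (11 of 11 listed) summed to 317 and 622 with TPA and to at most 106 elsewhere. The part of these tissues was not tested. Serpina3n (chromosome 12, 104406646 to 104414334) has close copies in the same cluster, and the assignment of reads shared by copies was not given in the sources used here.

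Of the membrane proteins, Steap4, a metalloreductase, stood at 53.52 and 12.51 FPKM in normal, 28.09 and 22.24 under BAPN, 35.8 and 40.0 with TPA, 7.7 and 50.91 with T-5224 and 23.76 with coQ10. Every group overlapped its neighbour in the order of means, and the lowest and second highest libraries were both T-5224. The difference of BAPN from normal was -0.06 (95% interval -2.26 to 2.14, limma adjusted p = 0.97) on the deposited values, and median-of-ratios scaling turned it to 0.51. Steap4 lies on chromosome 5 from 7960472 to 7982213.

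Slc39a14 stood at 11.77 and 37.21 FPKM in normal, 8.27 and 5.39 under BAPN, 9.6 and 8.45 with TPA, 15.44 and 9.4 with T-5224 and 27.37 with coQ10. The BAPN libraries were the lowest of the 9, and normal replicate 2 and coQ10 were the highest. Slc39a14 lies on chromosome 14 from 70303467 to 70351452. The difference was -1.52 from normal to BAPN (SE 0.544, 95% interval -2.82 to -0.23, limma adjusted p = 0.114) and 1.88 from BAPN to coQ10 (0.30 to 3.47, adjusted p = 0.214). Relative to the median of all genes these were -1.01 and 1.49. The first was -0.73 without normal replicate 2 (adjusted p = 0.33) and -2.31 without normal replicate 1 (adjusted p = 0.0809). The sum of the 8 smooth muscle markers, given above, was also lowest in the BAPN libraries (2068 and 763) and highest in normal replicate 2 (18768). Acta2 was lowest in the BAPN libraries too. Tagln was higher in BAPN replicate 1 (983.63 FPKM) than in both TPA libraries (728.98 and 868.41). Myh11 was lower in T-5224 replicate 2 (50.31) than in BAPN replicate 1 (75.46). The part of smooth muscle was not tested. The single coQ10 library has no replicate, and the fit assumes that it varies like the other groups. Slc39a14 passed in both comparisons after rescaling to TPM (adjusted p = 0.00469 and 0.0157), where 74.1% and 56.4% of all genes were called. With only the BAPN and coQ10 libraries fitted it passed too (adjusted p = 0.0456, beside 9.91% of all genes).

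Mt1 and Mt2 were the most abundant members, at ranks 19 and 27 of all genes by mean FPKM. Mt1 was at 927.63 and 1113.05 FPKM in normal, 5447.85 and 3214.74 under BAPN, 1486.24 and 4203.19 with TPA, 663.3 and 6499.38 with T-5224 and 4348.14 with coQ10. Mt2 was at 318.97 and 692.46 in normal, 6736.68 and 3627.06 under BAPN, 1079.37 and 2654.65 with TPA, 414.08 and 4414.17 with T-5224 and 3470.62 with coQ10. For both genes the BAPN libraries lay above the normal libraries, while the T-5224 libraries lay far apart. T-5224 replicate 1 lay below both normal libraries for Mt1 and between them for Mt2, and replicate 2 lay above both BAPN libraries for Mt1 and between them for Mt2. The difference of BAPN from normal was 3.39 for Mt2 (SE 1.16, 95% interval 0.63 to 6.15, limma adjusted p = 0.105) and 2.04 for Mt1 (SE 1.12, -0.63 to 4.72, adjusted p = 0.25). Without T-5224 replicate 1 or T-5224 replicate 2, Mt2 passed (adjusted p = 0.0213 and 0.0199) and so did Mt1 (adjusted p = 0.0483 and 0.046), with the differences unchanged and beside 27.7% and 28.2% of all genes. The interval for T-5224 against BAPN, -4.63 to 0.89 for Mt2, covers both no difference and a large one.

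FPKM are scaled by length, so the 2 metallothioneins can be set against each other within a library. The ratio of Mt2 to Mt1 was 0.34 and 0.62 in normal, 1.24 and 1.13 under BAPN, 0.73 and 0.63 with TPA, 0.62 and 0.68 with T-5224 and 0.80 with coQ10. Only in the BAPN libraries, of the 9, was Mt2 above Mt1, a feature seen after the values were examined. An exact permutation test (two-sided) of the log2 ratio gave p = 0.333 for BAPN against normal, TPA and T-5224 alike, the smallest that 2 libraries against 2 allow. Across the 9 libraries the Pearson correlation of Mt1 with Mt2 was 0.96, a description over libraries that share group and scaling.

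**Figure D3:**
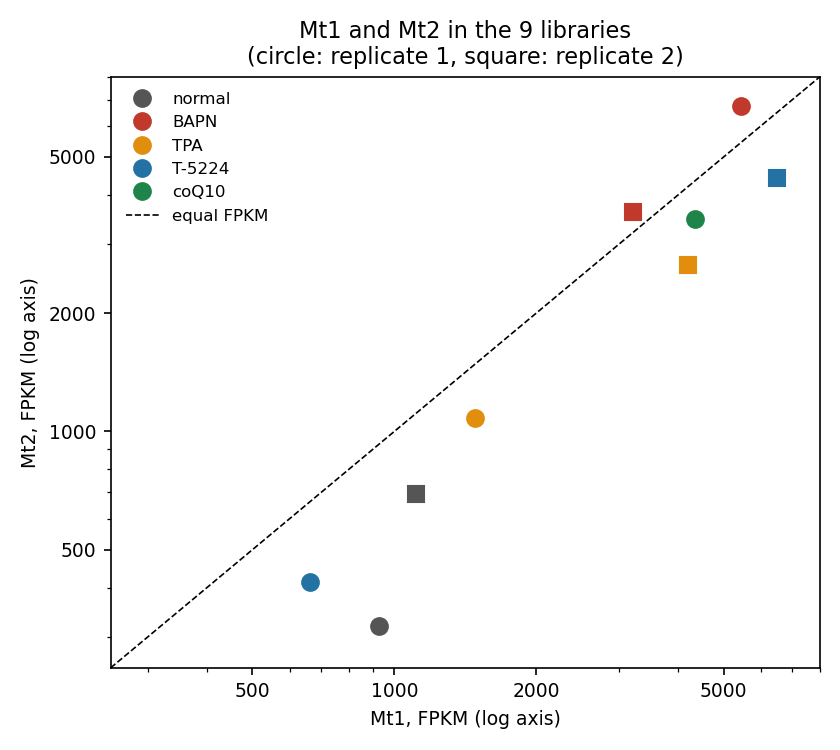
Mt2 (vertical, log axis) against Mt1 (horizontal, log axis) in FPKM, 1 point per library; circles are replicate 1, squares replicate 2, and the dashed line marks equal FPKM. The 2 BAPN libraries lie above the line (ratios 1.24 and 1.13), the other 7 below.

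The comparison of BAPN with normal asks what BAPN does to the aorta. Of the 8 members, 0 passed, beside 424 of all tested genes (3.26%), and 3 had an unadjusted p under 0.05, beside 4216 of all genes (32.4%). Both BAPN libraries lay above both normal libraries for 4 members (Lcn2, Serpina3n, Mt1 and Mt2), beside 15.0% of all genes, and below them for 2 (Hp and Slc39a14), beside 51.1%. The median difference of the members was 0.95, and that of all genes was -0.51. The summed airway markers split the normal and the T-5224 group, being high in normal replicate 1 and T-5224 replicate 2. By gene, Scgb1a1 and Scgb3a2 split both groups. Foxj1 was at 47.48 and 0.03 FPKM in normal but at 0.32 and 0.71 with T-5224. Both TPA libraries, with airway sums of 15991 and 7416, were kept. Without these 2 libraries, with the lone normal and T-5224 libraries assumed to vary like the other groups, Lcn2 (4.53), Mt2 (2.83) and Serpina3n (2.94) passed as higher and Slc39a14 (-2.31) as lower (limma adjusted p = 0.00361, 0.0261, 0.0174 and 0.00802), an alternative chosen after the values were seen that called 31.9% of all genes. In the same fit the Steap4 difference was 0.94, against its sign in all libraries.

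The TPA comparison with BAPN sets activation of AP-1 on top of BAPN. Again 0 members passed, beside 0.0385% of all genes, and 2 had an unadjusted p under 0.05 (Hp and Serpina3n), beside 10.2% of all genes. The TPA libraries lay above BAPN for 4 members (Hp, Serpina3n, Steap4 and Slc39a14), beside 41.4% of genes, and below for 2 (Lcn2 and Mt2), beside 21.2%. Mt2 differed by -1.55 (95% interval -4.30 to 1.21, limma adjusted p = 0.644). Without the same 2 libraries, Hp and Serpina3n passed (limma adjusted p = 0.0201 and 0.0415), beside 8.21% of all genes.

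T-5224 sets inhibition of AP-1 against BAPN alone. Of the members 0 passed, beside 0.0308% of genes, and 0 had an unadjusted p under 0.05 in limma, beside 18.3% of genes. Without the same 2 libraries, the differences of Lcn2, Steap4 and Mt2 were -2.18, -1.58 and -3.57 in the remaining T-5224 library. These values follow from the choice of library, because the T-5224 library left out was the one high in these genes. Leaving out T-5224 replicate 1 instead gave 0.60, 1.00 and -0.16. The T-5224 libraries lay above BAPN for 3 members (Saa3, Hp and Slc39a14), beside 34.2% of genes, and below for 0, beside 12.8%. The coQ10 library, set against BAPN, also had 0 members past the test, beside 0.0154% of genes, and 2 with an unadjusted p under 0.05 (Hp and Slc39a14), beside 19.8%. It lay above both BAPN libraries for 3 members (Saa3, Hp and Slc39a14), beside 59.6% of genes, and below for 2 (Lcn2 and Mt2), beside 24.1%. Without the same 2 libraries, Lcn2 (-1.67), Hp (3.76) and Slc39a14 (1.88) passed in coQ10 against BAPN (limma adjusted p = 0.027, 0.0134 and 0.018), beside 23.8% of all genes. The comparison of TPA with T-5224 had 0 members past the test, beside 0.0154% of genes, and 1 (Serpina3n) with an unadjusted p under 0.05, beside 10.9%. Steap4 passed there without the same 2 libraries (2.16, limma adjusted p = 0.025), beside 4.71% of all genes. This Steap4 result too follows from the choice of library. The T-5224 library kept was at 7.7 FPKM of Steap4, and the one left out was at 50.91. Leaving out T-5224 replicate 1 instead turned the difference of TPA from T-5224 to -0.42. The comparisons with BAPN share its 2 libraries.

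**Figure D4:**
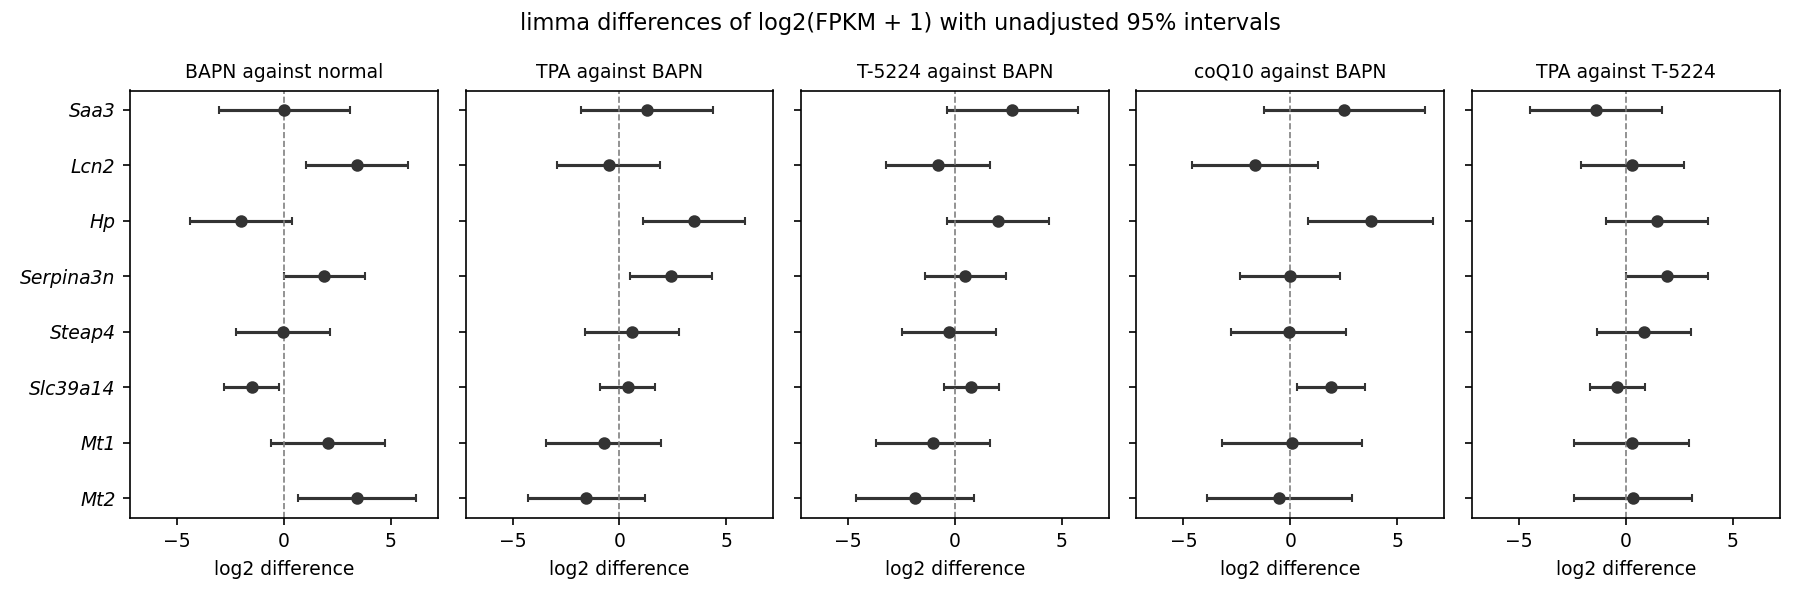
Difference of each gene in the 5 comparisons on the log2 scale with 95% intervals from limma. Intervals are wide, and no difference passed the adjusted threshold; Lcn2 (3.42) and Mt2 (3.39) have the highest values in BAPN against normal.

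The genes upstream of the acute phase response were read from lists. Of 21 tested cytokine and transcription factor drivers, 4 rose (Il6, Socs3, Il1b and Osm) and 1 fell (Il6st) in BAPN against normal, with a list median of 0.09 beside -0.51 for all genes. Of all 12997 tested genes, 424 (3.26%) passed in this comparison, 117 of them as higher. The lists were chosen with earlier results of these data known. Il6, the main inducer of the hepatic response, was at 0 and 0.1 FPKM in normal, 214.97 and 139.93 under BAPN, 7.58 and 12.04 with TPA, 1.3 and 1.37 with T-5224 and 0.94 with coQ10. It rose by 7.38 in BAPN against normal (limma adjusted p = 0.00229, and 0.0665 without BAPN replicate 1). Against BAPN it fell by 4.04 with TPA, by 6.22 in T-5224 and by 6.49 in coQ10 (limma adjusted p = 0.0324, 0.00713 and 0.0129). Il6 was thus highest in BAPN, and the TPA libraries lay between BAPN and the other groups. The fall in TPA was lost when any 1 of the 8 replicated libraries was left out (adjusted p 0.0514 to 0.621), and the fall in T-5224 was lost without BAPN replicate 1 (0.235) or BAPN replicate 2 (0.129), or with only the 2 groups fitted (0.0946). The fall in coQ10 was lost without either normal (0.05 and 0.055), BAPN (0.21 and 0.133) or TPA library (0.0695 and 0.0689). While Il6 was low in both T-5224 libraries, Lcn2, Mt1 and Mt2 were low in replicate 1 and high in replicate 2. Socs3, the feedback inhibitor of STAT3 signalling, was at 8.25 and 6.27 FPKM in normal, 186.06 and 86.3 under BAPN, 25.42 and 29.07 with TPA, 11.92 and 13.79 with T-5224 and 13.02 with coQ10. Its rise from normal to BAPN was lost without normal replicate 1, either BAPN or either TPA library (limma adjusted p 0.0667 to 0.162). Il6st, the signal-transducing receptor chain shared by the interleukin 6 family, was at 82.52 and 83.47 FPKM in normal and 29.05 and 30.61 in BAPN.

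Of 17 tested genes of the systemic acute phase, 1 passed in any comparison, and it did so in BAPN against normal, where 3.26% of all genes passed. Ptx3, a long pentraxin made by vascular and immune cells, rose from 1.15 and 0.29 FPKM in normal to 162.06 and 117.8 in BAPN (limma adjusted p = 0.0339). Of 18 tested zinc transporters and metallothionein neighbours, 0 passed in BAPN against normal and 7 had an unadjusted p under 0.05 in limma, beside 32.4% of all genes. Mt4, the metallothionein of stratified squamous epithelium, was at 49.64 and 56.61 FPKM in TPA and was not listed in the other 7 libraries. It rose in TPA against BAPN and against T-5224, and both calls were lost without either BAPN or either TPA library. An offset of 0.1 also ended both (limma adjusted p = 0.373 and 0.449). With only the 2 groups fitted, the call against T-5224 was lost (limma adjusted p = 0.127). Mt4 moved with the squamous markers, whose part was not tested. Of 15 tested receptors, partners and iron genes, 1 rose in BAPN against normal, beside the 3.26% of all genes that passed. It was Hmox1, the enzyme that breaks down haem, which rose from 28.48 and 14.58 to 800.8 and 205.9 FPKM. Of 11 glucocorticoid response genes, Zbtb16 and the receptor gene Nr3c1 fell in that comparison, beside the same 3.26% of all genes. Zbtb16 went from 39.0 and 70.0 to 2.28 and 1.72 FPKM and Nr3c1 from 22.25 and 23.26 to 6.71 and 7.97. The calls of Ptx3, Hmox1, Zbtb16, Nr3c1, Il1b, Osm and Il6st in BAPN against normal were each lost without either normal, BAPN or TPA library (limma adjusted p up to 0.247). Median-of-ratios scaling also ended the calls of Il6st (adjusted p = 0.158) and Nr3c1 (adjusted p = 0.131). Rescaling without haemoglobin ended those of Ptx3 (0.0618), Hmox1 (0.0732), Il1b (0.0855), Osm (0.0875), Il6st (0.14) and Nr3c1 (0.165), and the fit with no filter ended all 7 (adjusted p 0.051 to 0.0689). Of the 16 alternatives, the call in BAPN against normal held in 15 for Il6, 9 for Socs3, 8 for Zbtb16, 7 for Il1b, 6 for Ptx3 and Osm, 5 for Hmox1 and 4 for Il6st and Nr3c1.

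Members did not follow one another as a block. Over the 28 pairs of members, the Pearson correlation of log2 levels across 9 libraries ran from -0.82 (Lcn2 with Slc39a14) to 0.96 (Mt1 with Mt2), with a median of 0.40. Lcn2 was at 0.75 with Serpina3n and 0.73 with each metallothionein, while Hp was at 0.02 with Mt1 and -0.19 with Mt2. The genes most like a member were sought among 6162 genes with a mean of at least 10 FPKM. For Hp these were Msln (0.956), Srebf1 (0.948) and Anpep (0.944), and for Lcn2 they were Fxyd6 (0.973), Fst (0.959) and Ftl1 (0.948). Msln, the mesothelial surface protein mesothelin, was at 50.88 and 0.52 FPKM in normal, 0.5 and 0 under BAPN, 22.63 and 21.39 with TPA, 2.67 and 15.05 with T-5224 and 17.21 with coQ10. Outside each other, Mt1 and Mt2 were most like the same pair of genes, Tmem252 (0.896 and 0.95) and the endothelial tight junction gene Cldn5 (0.917 and 0.904). Cldn5 was at 28.25 and 48.35 FPKM in normal, 281.8 and 187.51 under BAPN, 32.49 and 59.69 with TPA, 10.37 and 405.84 with T-5224 and 249.67 with coQ10. The 8 endothelium markers summed to 656 and 468 FPKM in normal and 666 and 535 under BAPN, with no such rise. Their sums were 380 and 427 with TPA, 225 and 1415 with T-5224 and 667 with coQ10. The part of endothelium was not tested. Saa3 was most like Cmtm3 (0.951), Serpina3n Olfml3 (0.913), Steap4 Asns (0.975) and Slc39a14 Ptpn9 (0.982). These are descriptions over libraries that share groups and scaling.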

How the data were processed

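RNA sequencing covered 9 mouse aorta libraries, made with Trizol and a TruSeq RNA kit per the labels' protocols. The authors deposited FPKM per gene symbol to 2 decimals, 1 table per library, and genes not listed were set to 0. The submitters' processing notes name the build mm10. The aligner, counter, annotation and depth were not given in the sources used here, so precision near 0 is unknown.

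The log2 of FPKM plus 1 was modelled for genes averaging at least 1 FPKM (12997 of 17179). One model of 5 groups with 4 residual degrees of freedom was fitted to all 9 libraries in limma 3.58.1 (R 4.3.3) with a variance trend, with Benjamini-Hochberg adjustment across tested genes within each comparison (threshold 0.05, two-sided). All groups were fitted together because they hold 1 or 2 libraries. The script was tested on simulated data. Comparisons were BAPN against normal, each of TPA, T-5224 and coQ10 against BAPN, and TPA against T-5224. Tables used python 3.11.15 with numpy 2.4.6, pandas 2.3.3 and scipy 1.17.1, and figures used matplotlib 3.10.9. RefSeq GRCm38.p6 tables gave coordinates for 8 members and promoters for 6.

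All 8 members are named. From each list, genes that passed in at least 1 comparison are named, at most 6 by p, and likeness names the 3 closest genes per member, of which a selection is given. The members, gene lists and marker lists were chosen with earlier results of these data known. The alternatives tried were an offset of 0.1, no filter, 3 rescalings (median-of-ratios, TPM, and without 7 haemoglobin genes), a fit of only the 2 groups, a replicate block, leaving out each of 8 replicated libraries, and, added after the values were seen, leaving out normal replicate 1 and T-5224 replicate 2 together.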

Additional observations from a re-analysis of the deposited data

How the results depend on the processing

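Over 16 alternatives and 40 differences (8 members in 5 comparisons), 569 of 632 values kept the sign and the side of the threshold, 27 passed where the reported value did not and 36 changed sign (1 of them, Steap4 in BAPN against normal, past the threshold). In BAPN against normal, 0 members passed as reported, 2 after rescaling to TPM and 0 to 3 with 1 library left out. With only the 2 groups fitted, 2 members passed in TPA and 2 in coQ10 against BAPN, and rescaling to TPM gave 2 in coQ10. Without normal replicate 1 and T-5224 replicate 2 together (chosen after seeing the data), 5, 2, 3, 3 and 1 members passed in BAPN against normal, TPA, T-5224 or coQ10 against BAPN, and TPA against T-5224, respectively. Over all genes, in that order, the tests called 424, 5, 4, 2 and 2 as reported. They called 152, 0, 2, 1 and 0 with an offset of 0.1, and 53, 9, 2, 7 and 8 with no filter. They called 226, 5, 35, 10 and 3 after median-of-ratios scaling, and 9637, 2, 3168, 7328 and 2 after rescaling to TPM. They called 21, 2, 2, 2 and 2 after rescaling without haemoglobin, and 55, 1032, 0, 1247 and 0 with only the 2 groups fitted. They called 4087, 1052, 2341, 3045 and 603 without those 2 libraries. With 1 library left out they called 0 to 3672, 0 to 9, 0 to 80, 0 to 176 and 0 to 649. With a replicate block, on the 8 numbered libraries, they called 8, 2, 0 and 2 in the 4 comparisons without coQ10, and no member. The block ended the calls in BAPN against normal of every named list gene except Il6 (adjusted p 0.0719 to 0.0952) and those of Il6 in TPA (0.133) and T-5224 (0.0521) against BAPN. No block could be fitted for coQ10, whose label carries no number. Replicate numbers did not pair the libraries: deviations of same-numbered libraries from their group means correlated at -0.437 to 0.176 over 6 pairs of groups. Some differences changed sign (log2), given here with the lowest and highest value when 1 library was left out. In BAPN against normal, Saa3 ran from -0.85 to 0.89 and was -0.51 after rescaling to TPM. Steap4 ran from -1.07 to 0.94 and was 0.51 after median-of-ratios scaling, 0.07 after rescaling without haemoglobin and 0.94 without those 2 libraries. In TPA against BAPN, Mt1 ran from -1.49 to 0.01. In T-5224 against BAPN, Lcn2 ran from -2.18 to 0.60. Serpina3n ran from -0.13 to 1.10 and was -0.09 after rescaling without haemoglobin and -0.13 without those 2 libraries. Steap4 ran from -1.58 to 1.00 and was 0.43 after rescaling to TPM. Mt1 ran from -2.66 to 0.63. In coQ10 against BAPN, Serpina3n ran from -0.16 to 0.13 and was 1.43 after rescaling to TPM. Steap4 ran from -0.23 to 0.09 and was 1.34 after rescaling to TPM. Mt1 ran from -0.33 to 0.44 and was -0.43 after median-of-ratios scaling and -0.20 after rescaling without haemoglobin. Mt2 was 0.97 after rescaling to TPM. In TPA against T-5224, Saa3 ran from -3.17 to 0.37 and was 0.37 without those 2 libraries. Lcn2 ran from -1.09 to 1.69 and was -0.22 after rescaling to TPM. Steap4 ran from -0.42 to 2.16. Slc39a14 was 0.25 after rescaling without haemoglobin. Mt1 ran from -1.38 to 1.91 and was -0.28 after rescaling to TPM. Mt2 ran from -1.38 to 2.03 and was -0.22 after rescaling to TPM. The cause was not tested. Groups of 1 or 2 libraries and unknown depth limit every statement here.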
